A study of Mus musculus with 32 samples.

Results

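The transcripts of wild-type (WT) macrophages exposed to lipopolysaccharide (LPS) were compared directly with those of WT macrophages exposed to interferon beta (IFNβ). The comparison rested on 4 of the 32 arrays of the series, 2 of WT cells with LPS and 2 of WT cells with IFNβ, which were taken by genotype and treatment from the sample labels. The cells were bone marrow-derived macrophages (BMDMs), grown with M-CSF from the marrow of C57BL/6 mice. RNA was taken 6 h after LPS at 100 ng/mL or IFNβ at 1000 U/mL as the labels give the doses, whereas the methods and legends of the study name other doses. A pair of untreated WT arrays served to place each stimulus against resting cells, and 6 arrays of Ifnar1-/- BMDMs (untreated, LPS or IFNβ, 2 each), which lack a chain of the interferon receptor in all cells of the mouse, served as a further readout. Their levels do not enter the WT difference, although all arrays of the series share the normalization, the filter on dim probes and the estimate of the spread. None of these groups received a caspase or RIPK1 inhibitor. Nothing in the labels says whether replicates came from separate mice, so p-values measure only the spread between arrays.

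LPS, a component of the Gram-negative outer membrane, is sensed by TLR4 with CD14 and MD-2. One adaptor branch, through MyD88, drives NF-κB and MAP kinases, and the other, through TRIF, activates IRF3 and with it the gene for IFNβ. IFNβ binds IFNAR1 and IFNAR2, and the transcription factor complex ISGF3 then acts at ISRE elements of antiviral genes, while STAT dimers act at GAS elements. Because macrophages exposed to LPS make IFNβ themselves, the responses can share a part, and a direct comparison shows only where the levels differ. Such a difference can come from a rise or a fall with either stimulus. The IFNβ that cells make after LPS was not matched to the added IFNβ in dose or timing.

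Each array gave a scanner intensity per probe, normalized across arrays and read here as log2 intensity, so that values of one gene can be compared between arrays but not between genes. On the WT LPS and WT IFNβ arrays, 54.9% to 68.3% of probes were well above background, and replicates correlated at 0.980 (LPS) and 0.981 (IFNβ). Each WT slide held 1 LPS and 1 IFNβ array, so stimulus and slide were not confounded in WT cells. All 9 macrophage markers examined were above background on both arrays of each WT group. On both LPS arrays, so were 5 of 5 B cell, 4 of 6 T cell, 4 of 5 dendritic cell and 4 of 5 fibroblast markers. The same held for 2 of 4 NK cell, 3 of 4 mast cell and 1 of 4 erythroid markers. Signal above background thus does not by itself identify the cells. Of 10 neutrophil markers, 8 were above background on both arrays of each WT group, and their summed level ranged from 14.8 to 15.6 on the log2 scale with LPS, from 14.2 to 15.3 with IFNβ and from 14.2 to 15.3 in untreated cells. In bulk RNA, fewer cells of a type and less RNA per cell cannot be told apart. Below, array values are given for replicate 1 and then replicate 2, and a difference is LPS minus IFNβ in log2 units with its standard error (SE) unless stated otherwise. The SE of a gene draws on its spread in all 16 groups of the series, not on the 4 arrays compared alone.

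Macrophages with LPS held more RNA for 11 of 18 antimicrobial and acute phase genes, 11 of 31 genes of the NF-κB pathway and 7 of 17 inflammatory cytokine genes, and macrophages with IFNβ held more RNA for 5 of 13 interferon-inducible GTPase genes and 13 of 59 antiviral genes. Of 15267 genes tested, 1470 were higher with LPS (9.63% of genes tested) and 1786 were higher with IFNβ (11.7%) by limma with Benjamini-Hochberg adjusted p below 0.05. At least 2-fold differences were seen in 894 and 1225 of these, and at least 8-fold differences in 128 and 137. All but 3 of the 3256 called genes had LPS and IFNβ arrays that did not overlap, which was also true of 53.3% of all genes, and 3254 had the same sign within both slides. With the slide as a block the counts were 2505 and 2825 and held all 3256 calls. With only the WT arrays in the fit they were 1157 and 1521, and with only the 4 arrays compared they were 296 and 397. Leaving out single arrays lowered the count higher with LPS to 801 (without WT LPS replicate 2) or 795 (without WT IFNβ replicate 1) and the count higher with IFNβ to 1112 (without WT IFNβ replicate 2). In all, 1300 of the 3256 calls were made without each of the 4 arrays in turn.

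**Figure D1:**
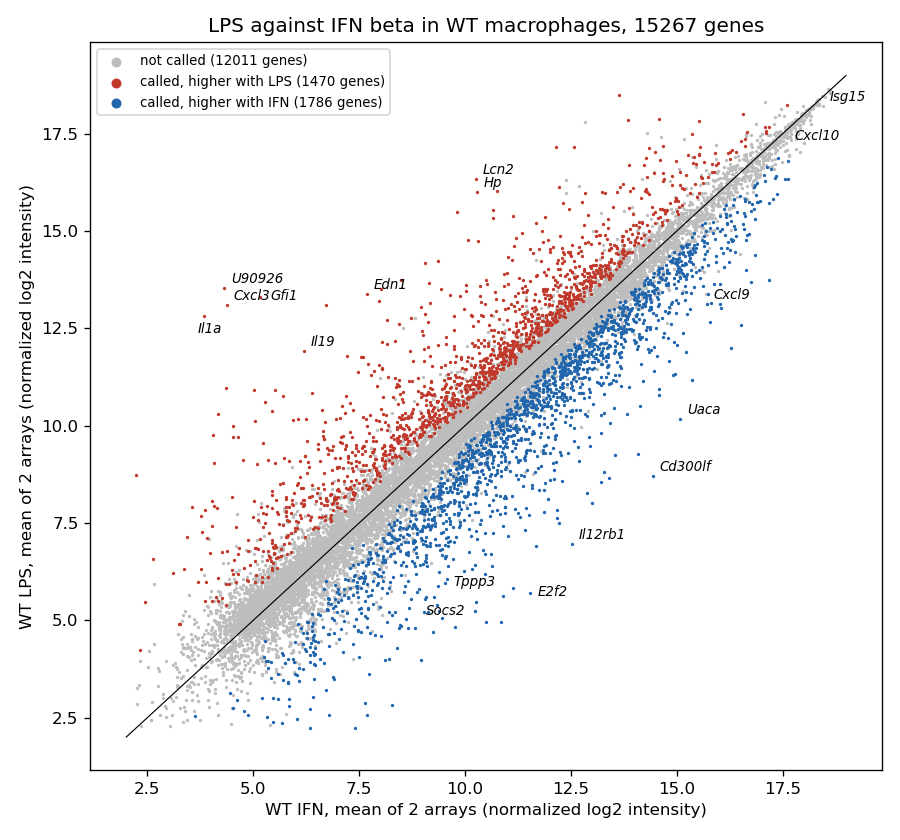
Mean log2 intensity of each of 15267 genes in WT macrophages with IFNβ (x axis) and with LPS (y axis), 2 arrays each, with genes called higher with LPS (1470), higher with IFNβ (1786) and neither coloured apart and the diagonal marking equal levels. Il1a, Cxcl3 and Lcn2 lie far above the diagonal, Cd300lf and Il12rb1 lie far below it, and most genes lie along it.

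Against untreated WT cells, which both stimuli share as their control, LPS raised 2556 genes (16.7%) and lowered 3891 (25.5%), and IFNβ raised 2139 (14%) and lowered 3393 (22.2%). With arrays aligned at the 75th percentile in place of quantile normalization there were 2928 raised and 2896 lowered with LPS, and 2311 and 2290 with IFNβ, and moved the median of all genes from -0.09 to 0.07 and from -0.17 to -0.02. The direct comparison was less affected, with 45.1% and 47.1% of its calls on the LPS side.
A direct difference could arise from either stimulus. Of the 1470 genes higher with LPS, 611 had risen with LPS with no call for IFNβ, 408 had fallen with IFNβ with no call for LPS, and 96 had risen with both. Of the 1786 genes higher with IFNβ, 634 had fallen with LPS with no call for IFNβ, 391 had risen with IFNβ with no call for LPS, and 269 had risen with both. Under quantile normalization the most frequent form of a gene higher with IFNβ was thus one that LPS had lowered. This split was not made at the 75th percentile, where fewer genes were lowered with LPS, nor over all genes. The direct difference and the changes over untreated cells also share arrays, so their calls are not independent.

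The genes furthest above IFNβ with LPS were near the bottom of the scale in untreated cells. U90926, a transcript with probe sequence at chr5:92641050-92641819 (mm9, the build of the array annotation), read 13.66 and 13.42 with LPS and 4.25 and 4.37 with IFNβ, a difference of 9.22 (SE 1.25, adjusted p = 4.94e-05). Both LPS arrays were high and both IFNβ arrays were at the untreated values of 4.63 and 4.10. Il1a, which encodes the cytokine IL-1α (probe at chr2:129125994-129126053, mm9), read 13.09 and 12.52 with LPS and 2.33 and 5.34 with IFNβ (log2 8.97, SE 1.54, adjusted p = 0.000409). Without WT IFNβ replicate 1 its difference was 7.47, and without WT IFNβ replicate 2 it was 10.47. Cxcl3, a neutrophil chemokine gene (chr5:91216694-91216753, mm9), read 14.02 and 12.16 against 2.74 and 6.02 (log2 8.71, SE 2.49, adjusted p = 0.0166). In both genes IFNβ replicate 2 lay above replicate 1, without reaching the LPS arrays. Only 1 of the 2 IFNβ arrays was well above background for U90926, Il1a, Cxcl3 and, among the genes below, Gfi1, Ambp, Lad1, Mfap3l and Ccl17, so that the size of these differences rests on a level that was only partly measured. Without WT IFNβ replicate 1 or WT LPS replicate 1 the Cxcl3 difference was 7.07 or 7.78 with adjusted p of 0.146 or 0.101. Gfi1, a transcriptional repressor of myeloid cells, read 13.02 and 13.62 with LPS and 3.87 and 6.47 with IFNβ (log2 8.15, SE 1.74, adjusted p = 0.00227).

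Secreted carriers and granule proteins formed another part of the top genes. Lcn2, whose product binds bacterial siderophores (chr2:32240199-32240258, mm9), read 16.03 and 16.65 with LPS and 9.84 and 10.66 with IFNβ, 68.1-fold apart (log2 6.09, SE 0.88, adjusted p = 8.31e-05). The untreated arrays, at 9.62 and 10.04, lay close to the IFNβ arrays and far from the LPS arrays. Hp, the gene of the haemoglobin-binding protein haptoglobin, read 15.64 and 16.36 against 9.94 and 10.64 (log2 5.71, adjusted p = 8.11e-05). Ambp, which encodes α1-microglobulin and bikunin, read 10.58 and 11.37 against 4.50 and 4.22 (log2 6.62, adjusted p = 2.44e-05). LPS and IFNβ arrays that did not overlap were a condition for naming these genes. Il19, a cytokine gene of the IL-10 family (chr1:132829446-132829505, mm9), had the smallest error of the set, with 12.12 and 11.73 with LPS and 6.42 and 5.96 with IFNβ (log2 5.73, SE 0.36, adjusted p = 1.19e-08), and IFNβ had itself raised it by 1.08 over untreated cells (adjusted p = 0.0233). Edn1, the gene of the vasoconstrictor endothelin 1, rose with both stimuli, from 2.47 and 2.53 in untreated cells to 13.85 and 12.90 with LPS and 7.88 and 7.51 with IFNβ (direct log2 5.68, SE 1.1, adjusted p = 0.00106). The remaining top genes, Wfdc21, Lad1, Adamts4, Mfap3l and Il4i1, differed by 5.69 to 6.39, and Il17rd, not well above background on either IFNβ array, was at least 23.5-fold higher with LPS (14.4-fold without WT LPS replicate 1). Of these, Il4i1, the gene of an amino acid oxidase, lost its call when WT IFNβ replicate 1 (adjusted p = 0.0904) or WT LPS replicate 2 (0.0549) was left out.

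On the other side, the genes highest with IFNβ relative to LPS were of 2 kinds. The first kind was raised by IFNβ. Il12rb1, a chain of the IL-12 receptor (chr8:73345261-73345320, mm9), read 12.73 and 12.34 with IFNβ, 6.59 and 7.33 with LPS and 5.30 and 5.88 in untreated cells, 47.7-fold higher with IFNβ than with LPS (log2 -5.57, SE 0.40, adjusted p = 5.87e-08). Uaca, the gene of a coiled-coil protein with ankyrin repeats (chr9:60728111-60728170, mm9), read 15.37 and 14.80 with IFNβ and 10.36 and 9.99 with LPS, the latter next to the untreated 10.08 and 10.16 (direct log2 -4.91, SE 0.34, adjusted p = 4.51e-08). Sectm1a, Tppp3 and Rundc3b had direct differences of -5.31, -5.26 and -4.94, were likewise raised by IFNβ and were not called for LPS against untreated cells (adjusted p = 0.18, 0.741 and 0.285). The second probe for Il12rb1 gave a smaller difference, -1.75, which also passed the test.

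Cd300lf, an inhibitory receptor gene of myeloid cells (chr11:114977540-114977599, mm9), moved in opposite directions. It read 11.11 and 11.05 in untreated cells, 14.41 and 14.45 with IFNβ and 8.28 and 9.12 with LPS, 53.0-fold apart (log2 -5.73, SE 0.61, adjusted p = 4.04e-06). Thus IFNβ raised it by 3.35 and LPS lowered it by 2.37 on the log2 scale (adjusted p = 0.000265 and 0.00381), and its other probes gave -5.79 and -2.52 for the direct difference. Kif5c, a kinesin heavy chain gene, and Lmo1, a LIM-domain transcriptional regulator, did the same, with IFNβ changes of 2.88 and 2.81 and LPS changes of -2.11 and -2.66. Lmo1 was not well above background on the LPS arrays and was at least 23.3-fold higher with IFNβ. In total 60 genes were raised by IFNβ and lowered by LPS, and 71 genes were raised by LPS and lowered by IFNβ.

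The second kind had been lowered by LPS and was not called for IFNβ against untreated cells. E2f2, a transcription factor gene of the cell cycle, read 12.16 and 12.22 in untreated cells, 11.35 and 11.71 with IFNβ and 5.31 and 6.11 with LPS (direct log2 -5.82, SE 0.69, adjusted p = 1.32e-05). Cxcr4, the receptor of CXCL12, read 11.81 and 12.04 untreated, 9.18 and 11.30 with IFNβ and 4.57 and 5.92 with LPS (direct log2 -5.00, SE 1.06, adjusted p = 0.00211). The LPS arrays lay below the other 4 in both genes. Inpp5j, Mex3b, Nanos1, Etl4 and Lrrc14b followed the same pattern with direct differences of -5.89 to -4.98. Inpp5j and Nanos1 were well above background on 1 of the 2 LPS arrays, and the last pair were at least 12.6-fold and 15.3-fold higher with IFNβ, since neither LPS array was well above background. The adjusted p of Inpp5j was 0.0715 when WT IFNβ replicate 2 was left out and 0.114 when WT LPS replicate 1 was, and that of Etl4 was 0.0824 when WT IFNβ replicate 1 was left out and 0.0521 when WT LPS replicate 2 was.

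**Figure D2:**
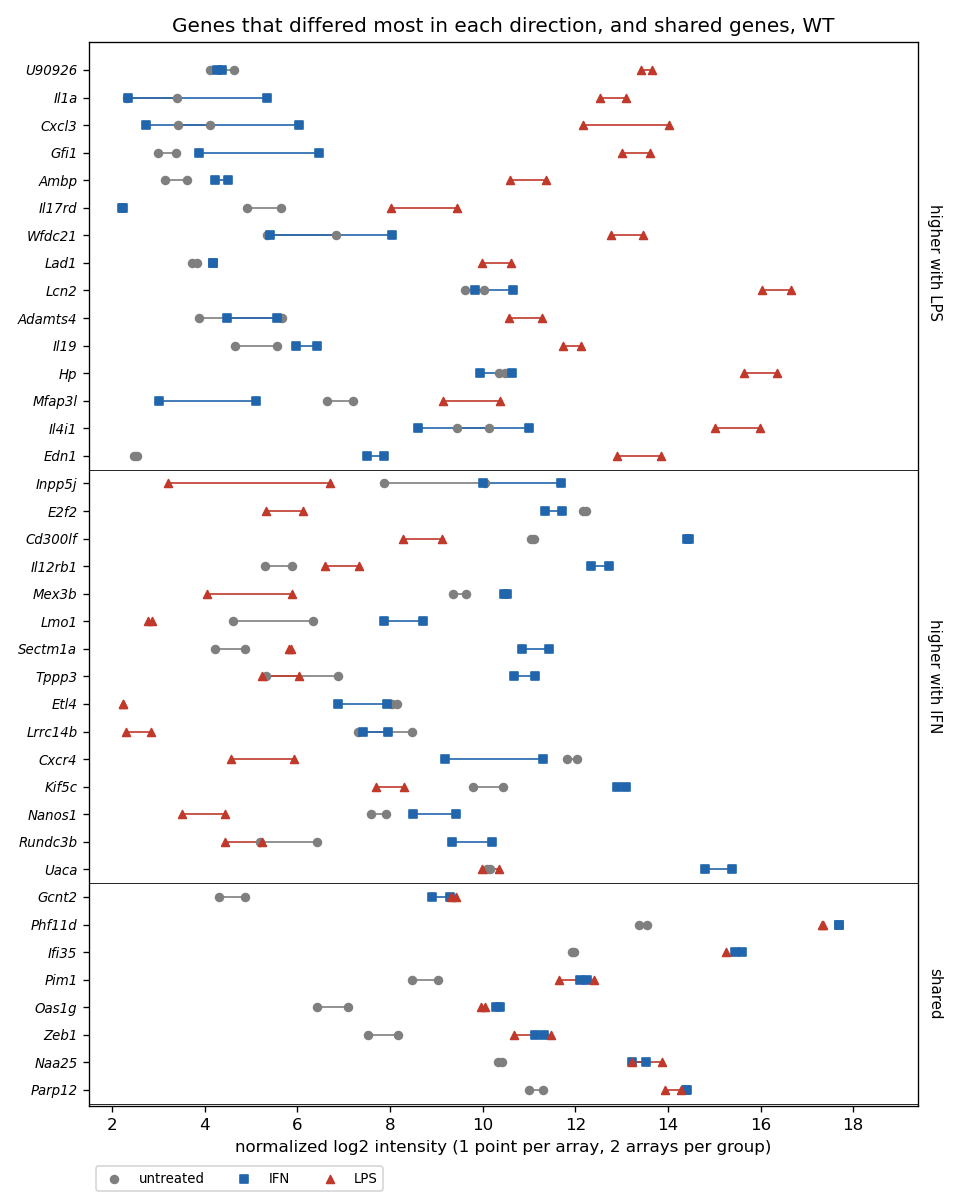
Normalized log2 intensity (x axis) of single WT arrays, untreated, with IFNβ and with LPS, for the 15 genes furthest apart in each direction and the 8 genes of the shared class with the largest rises (y axis). In the genes higher with LPS the IFNβ points mostly sit near the untreated ones, and in the genes higher with IFNβ either the IFNβ points sit above, as in Uaca, or the LPS points sit below the untreated ones, as in E2f2.

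Inflammatory cytokine genes were mostly raised by both stimuli, and some of them further by LPS. The list of cytokines known to be driven by NF-κB and MAP kinases held 26 genes, of which 17 were tested. Over untreated cells 15 of the 17 rose with LPS and 13 with IFNβ, against 16.7% and 14% of all genes. In the direct comparison 7 were higher with LPS (9.63% of all genes), 2 were higher with IFNβ (11.7%) and 8 were not called. The median difference was 2.15, against 0.02 over all genes. Tnf read 16.79 and 15.87 with LPS, 13.88 and 14.48 with IFNβ and 10.47 and 10.22 in untreated cells. The LPS arrays were the higher, but the direct difference of 2.15 (SE 1.11) did not pass the test (adjusted p = 0.194). Il6 read 17.06 and 15.55 with LPS, 12.66 and 12.13 with IFNβ and 3.38 and 3.54 untreated, so that IFNβ alone had raised this gene by 8.93 (adjusted p = 0.000245). Its direct difference of 3.91 (SE 1.60) and that of Il1b, 4.97 (SE 1.80; 17.79 and 17.82 with LPS, 11.90 and 13.78 with IFNβ), had adjusted p of 0.0919 and 0.0566. With the slide as a block these were 0.0694 and 0.0344, so that the block made the call for Il1b. Il10, the gene of an anti-inflammatory cytokine, was raised to similar values by LPS (12.54 and 11.43) and by IFNβ (13.01 and 11.58) from 6.49 and 7.10, and the arrays overlapped. Csf1 and Hbegf, growth factor genes, were instead the members higher with IFNβ, by 2.03 and 2.19 (adjusted p = 0.00264 and 0.00629). For Csf1 the other probes gave -0.01 and -0.21 and did not pass, and it had an adjusted p of 0.0769 without WT LPS replicate 2, while for Hbegf the p was 0.0742 without WT IFNβ replicate 1 and 0.133 without WT LPS replicate 2.

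Some cytokine genes were so low outside the LPS arrays that they did not pass the filter on dim probes, which asked for signal on 50% of all arrays. Il12b, the gene of the p40 subunit of IL-12, read 15.26 and 13.11 with LPS and was not well above background with IFNβ (2.78 and 4.06), so that it was at least 1028-fold higher with LPS. Without WT LPS replicate 1 this bound was 488-fold, and without WT LPS replicate 2 it was 2169-fold. Il12a, the gene of the p35 subunit, was at least 19.7-fold higher, the chemokine gene Ccl22 at least 15.8-fold and the growth factor genes Ereg and Csf2 at least 2.05-fold and 1.60-fold. These 5 genes were above background on both LPS arrays and on neither IFNβ array, and all but Il12a, with 1, were above background on neither untreated array.

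Chemokine genes were grouped in 2 lists by their known inducers, and most were not called between the stimuli (8 of 11 and 4 of 6). Of 11 tested chemokine genes known to respond to TLR ligands (of 14), 10 rose with LPS and 6 with IFNβ over untreated cells. In the direct comparison 3 were higher with LPS and none with IFNβ, with a median of 0.83. For both lists the shares over all genes were 16.7% (LPS) and 14% (IFNβ) raised over untreated cells. The direct shares were 9.63% higher with LPS and 11.7% higher with IFNβ. Cxcl1 read 14.09 and 12.94 with LPS and 6.71 and 9.33 with IFNβ, against 7.55 and 7.91 in untreated cells (direct log2 5.49, SE 1.46, adjusted p = 0.0109). Both LPS arrays lay above all others, and without WT IFNβ replicate 1 or WT LPS replicate 1 the adjusted p was 0.134 or 0.0765. Cxcl2 read 14.88 and 13.64 with LPS and 10.94 and 12.41 with IFNβ, and its difference of 2.58 (SE 1.43) did not pass (adjusted p = 0.235). Ccl17 read 7.56 and 8.58 with LPS and 5.25 and 4.78 with IFNβ (log2 3.06, SE 0.65, adjusted p = 0.00223). By contrast, of 6 chemokine genes known to be induced by interferons, 5 rose with each stimulus and 2 were higher with IFNβ, with a median of -0.89. Cxcl9, a CXCR3 ligand gene (chr5:92752796-92752855, mm9), read 13.40 and 12.85 with LPS and 15.84 and 15.57 with IFNβ (log2 -2.58, SE 0.68, adjusted p = 0.0101), and Ccl8 read 13.34 and 12.46 against 15.40 and 14.58 (log2 -2.09, SE 0.68, adjusted p = 0.0342). Cxcl10, another CXCR3 ligand gene, stood at 18.02 and 17.68 with LPS and 18.09 and 17.93 with IFNβ (log2 -0.16, SE 1.03, adjusted p = 0.948), although a second probe gave -1.90 (adjusted p = 0.0858). Without WT IFNβ replicate 1, WT IFNβ replicate 2 or WT LPS replicate 2, Ccl8 had adjusted p of 0.217, 0.053 and 0.223, and Cxcl9 had 0.0682 without WT IFNβ replicate 1 and 0.0798 without WT LPS replicate 2.

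The promoters of these chemokine genes are shown because Cxcl1, Cxcl2 and Cxcl3 lie on the same stretch of chromosome 5 and share a match to the NF-κB (kB) consensus close to the start site, whereas the Cxcl10 promoter holds the ISRE core as well. The stretches are from RefSeq (GRCm38.p6) and are written in the direction of transcription. They lie at chr5:90891129-90891228 (plus strand, Cxcl1), chr5:90903757-90903856 (plus, Cxcl2), chr5:90785983-90786082 (plus, Cxcl3) and chr5:92348978-92349107 (minus, Cxcl10). Capitals mark overlapping kB matches in Cxcl1, Cxcl2 and Cxcl3 and, in Cxcl10, first the ISRE core and then both kB matches.
Cxcl1: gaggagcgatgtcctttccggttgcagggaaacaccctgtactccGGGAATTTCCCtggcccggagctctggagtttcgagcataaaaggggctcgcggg
Cxcl2: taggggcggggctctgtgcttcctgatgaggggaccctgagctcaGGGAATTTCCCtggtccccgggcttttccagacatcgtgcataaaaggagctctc
Cxcl3: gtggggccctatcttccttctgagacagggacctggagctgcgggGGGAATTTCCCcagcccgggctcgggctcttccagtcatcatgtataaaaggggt
Cxcl10: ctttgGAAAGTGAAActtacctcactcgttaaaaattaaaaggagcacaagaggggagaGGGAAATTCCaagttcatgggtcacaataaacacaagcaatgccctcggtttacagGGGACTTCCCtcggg
The same letters begin 71 bases before the start site in Cxcl1, 97 in Cxcl2 and 73 in Cxcl3. In Cxcl10 the ISRE core begins 213 bases and the kB matches 159 and 103 bases before the start. A match is a run of letters and was not tested as a binding site.

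Feedback inhibitors and subunits of the NF-κB pathway leaned to LPS as a group. Of 31 genes of the list, 30 had a positive difference, with a median of 0.96. Calls were made for 11 higher with LPS and 1 higher with IFNβ, against 9.63% and 11.7% of all genes. LPS had raised 23 of the 31 over untreated cells and IFNβ 7, against 16.7% and 14% of all genes. Irak3, an inhibitor of TLR signalling, read 14.90 and 15.02 with LPS and 10.61 and 12.10 with IFNβ (log2 3.61, SE 0.68, adjusted p = 0.000886). Tnip1 and Tnip3, whose products bind the deubiquitinase A20, differed by 2.52 and 2.51 (adjusted p = 0.00713 and 0.00298), and Tnfaip3, the A20 gene itself, by 2.05 (16.66 and 16.38 with LPS, 13.93 and 15.02 with IFNβ, adjusted p = 0.0621, and 0.018 with the slide as a block). Nfkbia, the IκBα gene, read 17.46 and 17.40 with LPS and 16.23 and 17.03 with IFNβ and did not pass (log2 0.80, adjusted p = 0.255). The exception was Cyld, a deubiquitinase gene that both stimuli lowered, LPS the further, from 10.88 and 11.12 to 8.32 and 9.0 with LPS and 9.57 and 9.99 with IFNβ (direct log2 -1.13, SE 0.30, adjusted p = 0.0100). Single arrays mattered for the calls of Tnip1 (0.152 without WT IFNβ replicate 1, 0.0561 without WT LPS replicate 2), Tnip3 (0.0537 without WT IFNβ replicate 1) and Cyld (0.101 without WT IFNβ replicate 2, 0.136 without WT LPS replicate 1).

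The Tnip1 and Il19 promoters are printed since both genes were higher with LPS and both windows hold a kB match, which in Il19 comes with an ISRE core. They lie at chr11:54962943-54963042 (minus strand, Tnip1) and chr1:130940153-130940252 (minus, Il19) in GRCm38.p6. Capitals mark overlapping kB matches in Tnip1 and, in Il19, the ISRE core followed by the kB match.
Tnip1: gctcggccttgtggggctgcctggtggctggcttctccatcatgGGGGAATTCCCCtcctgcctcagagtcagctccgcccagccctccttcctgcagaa
Il19: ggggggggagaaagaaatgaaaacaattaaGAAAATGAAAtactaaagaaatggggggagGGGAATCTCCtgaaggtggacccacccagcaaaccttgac
The matches begin 58, 57 and 56 bases before the start in Tnip1, and 107 (ISRE core) and 77 (kB) bases before it in Il19. Both windows were picked for their matches. Windows of some genes higher with IFNβ (Uaca, Tlr3 and Cyld) hold a kB match too, and those of Lcn2, Irak3 and Dusp2, higher with LPS, hold none.

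Immediate early genes and MAP kinase phosphatases showed no common direction. Of 33 genes, 7 were higher with LPS and 8 with IFNβ, against 9.63% and 11.7% of all genes, with a median of 0.08. Dusp2, a phosphatase of MAP kinases, rose with both, from 10.45 and 11.25 to 16.96 and 16.46 with LPS and 13.40 and 14.36 with IFNβ (direct log2 2.83, SE 0.54, adjusted p = 0.000886), and Dusp16 differed by 2.07 (adjusted p = 0.0281) and Phlda1 by 3.07 (adjusted p = 0.00573). Zfp36l2, an RNA-binding protein gene that promotes mRNA decay, was lowered by LPS, to 11.26 and 12.54 from 15.85 and 16.08, and read 15.10 and 15.36 with IFNβ (direct log2 -3.33, SE 0.42, adjusted p = 2.4e-05). Its relative Zfp36, the tristetraprolin gene, rose with both stimuli, to 13.61 and 12.25 with LPS and 12.62 and 12.47 with IFNβ, with no call between them (log2 0.39, SE 0.55). Plau, the urokinase gene, was lower with LPS (6.66 and 6.15) than with IFNβ (10.67 and 10.58; log2 -4.23, adjusted p = 6.88e-05), and Dusp8 was higher with IFNβ by 3.20 (adjusted p = 0.0157), with a second probe at -0.96 that did not pass. The calls for Phlda1 (0.077 without WT IFNβ replicate 1, 0.0565 without WT LPS replicate 1), Dusp16 (0.265 without WT IFNβ replicate 1, 0.100 and 0.101 without either LPS array) and Dusp8 (0.157 without WT IFNβ replicate 2, 0.118 without WT LPS replicate 1) were not made without single arrays.

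Antimicrobial and acute phase genes were the list furthest to the LPS side. Of 18 genes, 11 were higher with LPS and none with IFNβ, against 9.63% and 11.7% of all genes, and the median difference was 3.60. Over untreated cells 16 had risen with LPS and 4 with IFNβ, against 16.7% and 14% of all genes. Besides Lcn2 and Hp, Fpr1, the receptor for formyl peptides, read 15.65 and 16.41 with LPS, 9.70 and 11.79 with IFNβ and 9.53 and 9.37 untreated (direct log2 5.28, SE 1.38, adjusted p = 0.00976, 0.112 without WT IFNβ replicate 1 and 0.0686 without WT LPS replicate 2). Several genes of this list are also known from neutrophils. Of the 10 neutrophil markers, S100a8 and Camp were called higher with LPS, and the summed level of the markers overlapped between the groups, as given above. Their part in the result was not tested.

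Among the enzymes that make nitric oxide, itaconate and prostaglandins, 4 of 15 genes were higher with LPS and none with IFNβ. The shares over all genes were 9.63% and 11.7%, and the list median was 1.04. Nos2, the inducible nitric oxide synthase gene, rose with both stimuli, from 8.15 and 7.86 to 16.49 and 15.49 with LPS and 12.88 and 12.80 with IFNβ (direct log2 3.15, SE 0.56, adjusted p = 0.000521). Slc7a2, which imports the arginine that the synthase uses, rose with LPS to 12.21 and 12.10 from 6.88 and 6.61 and read 8.28 and 7.79 with IFNβ (direct log2 4.12, SE 0.63, adjusted p = 0.000137). Acod1, the gene of the enzyme that makes itaconate, stood at 18.21 and 18.07 with LPS and 17.35 and 17.57 with IFNβ, with no call between them (log2 0.68, SE 1.65). Ptgs2, the cyclooxygenase 2 gene, read 16.41 and 15.58 with LPS and 12.03 and 12.74 with IFNβ (log2 3.60, SE 1.44, adjusted p = 0.0854, and 0.0399 with the slide as a block). Pla2g4a, the cytosolic phospholipase A2 gene, was higher with LPS by 1.82 (adjusted p = 0.0117, with 0.074 when WT IFNβ replicate 2 was left out and 0.0736 when WT LPS replicate 2 was). Of 17 glycolysis genes, 8 were higher with LPS and 1 with IFNβ, against 9.63% and 11.7% of all genes, with a median of 0.48. Pfkfb3, an enzyme that raises glycolytic flux, read 16.20 and 16.59 with LPS and 14.32 and 14.28 with IFNβ (log2 2.09, SE 0.35, adjusted p = 0.000279), whereas Vegfa, the angiogenic factor gene on the same list, read 7.75 and 9.58 with LPS and 12.998 and 13.82 with IFNβ (log2 -4.75, SE 0.74, adjusted p = 0.000159). The transporter genes Slc16a3 and Slc2a1 were called higher with LPS by 2.08 and 1.91, but not without WT IFNβ replicate 1 (adjusted p = 0.271 and 0.241) or WT LPS replicate 2 (0.494 and 0.302).

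Antiviral genes known as ISGF3 targets were mostly raised by both stimuli, and most of them were not called between LPS and IFNβ. Of 59 genes, 55 rose with LPS and 56 with IFNβ over untreated cells, against 16.7% and 14% of all genes. With LPS in Ifnar1-/- cells 27 of the 59 rose and 5 fell, against 11.5% and 14.5% of all genes. ISGF3 itself was not measured. In the direct comparison 55 had a negative difference, and the median was -0.62. Of the 59, 13 were called higher with IFNβ (11.7% of all genes), none with LPS (9.63%) and 46 in neither direction. The direct calls lay in genes such as Ifit2, which inhibits translation of viral RNA and read 16.33 and 15.32 with LPS and 17.31 and 17.26 with IFNβ (log2 -1.46, SE 0.43, adjusted p = 0.0200), Cmpk2, a mitochondrial nucleotide kinase gene (log2 -1.29, adjusted p = 0.0215), and Parp11 (log2 -1.64, adjusted p = 0.0139). LPS replicate 2 was the lowest of the 4 arrays for Ifit2 and Cmpk2. Other well known members differed less, with Isg15, a ubiquitin-like modifier gene, at 18.25 and 18.18 with LPS and 18.47 and 18.44 with IFNβ, Rsad2, the viperin gene, at 17.64 and 16.87 against 18.08 and 17.92, and Mx1 at 16.97 and 16.23 against 17.35 and 17.23. Their differences of -0.24, -0.74 and -0.69 did not pass (adjusted p = 0.894, 0.568 and 0.692). Usp18, which turns the interferon receptor signal down, was raised by 4.18 with LPS and 4.68 with IFNβ. Without WT LPS replicate 2, the adjusted p of Ifit2, Cmpk2 and Parp11 was 0.240, 0.341 and 0.0509. Leaving out WT IFNβ replicate 1 gave values above 0.05 for Ifit2 and Cmpk2 (0.0927 and 0.120), as did leaving out WT IFNβ replicate 2 for all of them (0.0756, 0.0622 and 0.0962) and WT LPS replicate 1 for Parp11 (0.0728).

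Interferon-inducible GTPases, which act on intracellular vacuoles and pathogens, differed more. All 13 rose with each stimulus, against 16.7% (LPS) and 14% (IFNβ) of all genes. In the direct comparison 5 were higher with IFNβ and none with LPS, against 11.7% and 9.63%, with a median of -0.94. Gbp4 read 10.64 and 11.24 with LPS, 14.57 and 14.59 with IFNβ and 5.25 and 6.77 in untreated cells, 12.5-fold higher with IFNβ than with LPS (log2 -3.64, SE 0.72, adjusted p = 0.00129). Iigp1 read 13.83 and 12.46 against 15.96 and 15.69 (log2 -2.67, SE 0.52, adjusted p = 0.00115), and Gbp9 differed by -1.67 (SE 0.30, adjusted p = 0.000638). The IFNβ arrays lay above both LPS arrays in each, and nearly all called genes had arrays that did not overlap. Gbp2 was not called, at 17.80 and 17.70 with LPS and 18.21 and 18.16 with IFNβ (log2 -0.44, SE 1.05).

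The promoters of 3 antiviral and signalling genes show how the ISRE core, GAAANNGAAA on either strand, is placed. Isg15 lies at chr4:156200836-156200935 (minus strand), Stat2 at chr10:128270248-128270347 (plus) and Parp11 at chr6:127446751-127446850 (plus), all in GRCm38.p6 from RefSeq. Capitals mark the core, which is present as 3 overlapping copies in Isg15 and is read on the opposite strand in Stat2 and Parp11.
Isg15: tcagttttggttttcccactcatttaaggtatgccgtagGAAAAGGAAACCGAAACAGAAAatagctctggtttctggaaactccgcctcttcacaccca
Stat2: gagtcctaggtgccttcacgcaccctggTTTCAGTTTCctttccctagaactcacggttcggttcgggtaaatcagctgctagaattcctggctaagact
Parp11: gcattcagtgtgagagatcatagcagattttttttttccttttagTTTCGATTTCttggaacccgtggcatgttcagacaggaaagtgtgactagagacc
The cores begin 78, 72 and 66 bases before the start in Isg15, 222 in Stat2 and 44 in Parp11.

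The receptors and transducers of interferon signalling were mixed. Of 28 genes, 4 were higher with LPS and 8 with IFNβ, against 9.63% and 11.7% of all genes, with a median of -0.24. Stat2, a subunit of ISGF3, read 15.16 and 15.22 with LPS, 16.33 and 16.81 with IFNβ and 13.62 and 13.54 untreated (direct log2 -1.38, SE 0.37, adjusted p = 0.0121). Irf7 and Irf1, transcription factor genes induced by interferons, were higher with IFNβ by 1.22 and 1.17 (adjusted p = 0.0465 and 0.0191), although a second Irf1 probe gave -0.35 and did not pass. None of these 3 calls was made without WT IFNβ replicate 2 (adjusted p = 0.109, 0.193 and 0.127) or without WT LPS replicate 2 (0.052, 0.192 and 0.112), and those for Stat2 and Irf7 were not made without WT LPS replicate 1 (0.0586 and 0.0998) nor that for Irf7 without WT IFNβ replicate 1 (0.105). Socs2, a cytokine signalling inhibitor, differed most, with 5.46 and 5.48 with LPS, 10.30 and 10.22 with IFNβ and 6.19 and 6.47 untreated (direct log2 -4.79, SE 0.67, adjusted p = 6.18e-05). Socs3, of the same family, leaned the other way, with 17.57 and 17.48 against 14.44 and 14.14, and did not pass (log2 3.23, SE 1.32, adjusted p = 0.0919, 0.0589 with the slide as a block), and Socs1 read 13.91 and 13.05 against 15.37 and 14.28 (log2 -1.35, SE 0.80, adjusted p = 0.273). Stat5a, Ptpn1 and Ifngr2 were higher with LPS by 2.53, 1.43 and 1.0 (adjusted p = 6.35e-06, 5.46e-05 and 0.00142). Irf4 was lowered by both, LPS the further (4.07 and 4.82 against 6.60 and 6.45, direct log2 -2.08, adjusted p = 0.0293), a call that was not made without any one of the 4 arrays (adjusted p from 0.0509 to 0.174). Ifnb1 itself was at 10.38 and 9.0 with LPS and 9.32 and 9.81 with IFNβ, overlapping, and at 4.22 and 5.39 in untreated cells.

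Of 26 genes of the TLR pathway, 4 were higher with LPS and 4 with IFNβ, against 9.63% and 11.7% of all genes, with a median of 0.18. Tlr3, the sensor of double-stranded RNA, rose with both and was higher with IFNβ (12.57 and 12.48) than with LPS (11.39 and 10.64; log2 -1.51, SE 0.45, adjusted p = 0.0199). Cd180, a TLR4 relative of B cells and macrophages, read 12.84 and 12.79 with IFNβ and 11.15 and 10.26 with LPS (log2 -2.11, SE 0.30, adjusted p = 6.25e-05). Tlr4 itself read 11.31 and 11.38 with LPS, 12.63 and 12.66 with IFNβ and 12.08 and 12.32 untreated (direct log2 -1.30, SE 0.34, adjusted p = 0.0101), and neither change against untreated cells passed the test. The LPS co-receptor gene Cd14 (17.47 and 17.51 against 14.73 and 15.99), Tlr1 and the adaptor gene Ticam2 were higher with LPS, by 2.13, 2.13 and 1.78 (adjusted p = 0.00686, 0.0459 and 0.00630). Without single arrays the adjusted p reached 0.188 for Tlr3 (WT LPS replicate 2 left out, and 0.0972 and 0.0709 without WT IFNβ replicate 1 and 2), 0.0530 for Tlr4 (WT LPS replicate 1 left out, and 0.0522 and 0.0527 without WT IFNβ replicate 1 and 2), 0.121 for Cd14 and 0.145 for Ticam2 (WT IFNβ replicate 1 left out, and 0.0718 for Ticam2 without WT LPS replicate 2). Tlr1 was not called without any one of the 4 arrays (0.0672 to 0.255).

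MHC class I genes were mostly raised by both stimuli. All 16 MHC class I genes had a negative direct difference, but only 2 were called, Tapbpl by -1.16 (adjusted p = 0.0408) and the immunoproteasome subunit gene Psmb9 by -0.92 (adjusted p = 0.0344), neither of them without any one of the 4 arrays (0.122 to 0.137 and 0.0738 to 0.178). LPS had raised 12 of the 16 and IFNβ 13, against 16.7% and 14% of all genes. Over all genes, 11.7% were called higher with IFNβ. Of 13 MHC class II and costimulation genes, 2 were higher with IFNβ and none with LPS, against 11.7% and 9.63% of all genes, with a median of 0.25. Cd86, a ligand for CD28 on T cells, read 12.59 and 11.97 with LPS, 13.92 and 14.33 with IFNβ and 9.50 and 10.02 in untreated cells (direct log2 -1.85, SE 0.36, adjusted p = 0.000991). H2-DMa, which helps to load peptides, was lowered by LPS, to 11.66 and 11.54, and read 12.47 and 12.81 with IFNβ (direct log2 -1.04, SE 0.22, adjusted p = 0.00212).

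Among genes of inflammasomes and cell death, the called ones were all higher with IFNβ. Of 21 genes, 14 rose with each stimulus, against 16.7% (LPS) and 14% (IFNβ) of all genes. The direct comparison placed 4 higher with IFNβ and none with LPS, against 11.7% and 9.63%, with a median of -0.16. Tnfsf10, the gene of the death ligand TRAIL, read 12.79 and 11.70 with LPS and 14.96 and 14.61 with IFNβ (log2 -2.54, SE 0.66, adjusted p = 0.00915), and Pmaip1, the NOXA gene, differed by -3.03 (SE 0.89, adjusted p = 0.0197). The LPS and IFNβ arrays did not overlap in either gene, as in all but 3 of the 3256 called genes. Mlkl, the effector gene of necroptosis, was raised from 11.01 and 10.41 to 14.31 and 13.85 with LPS and 14.80 and 14.52 with IFNβ, with no call between the stimuli (log2 -0.58, SE 0.27, adjusted p = 0.139), and Ripk3 read 11.47 and 12.16 against 12.23 and 11.72. The call for Tnfsf10 was not made without WT IFNβ replicate 1 (0.0682) or WT LPS replicate 2 (0.110), nor that for Pmaip1 without WT IFNβ replicate 2 (0.230) or WT LPS replicate 1 (0.210).

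Genes of macrophage identity and of lipid handling changed in both directions. Of 38 macrophage genes, 8 were higher with LPS and 13 with IFNβ, against 9.63% and 11.7% of all genes, with a median of -0.49. P2ry12, a purinergic receptor gene, read 8.17 and 8.04 with LPS, 12.23 and 11.69 with IFNβ and 9.25 and 9.65 untreated (direct log2 -3.85, SE 0.77, adjusted p = 0.00131), and Klf4, a transcription factor gene, differed by -2.64 (SE 0.42, adjusted p = 0.000223). Cebpd, another transcription factor gene, was higher with LPS (17.23 and 17.02) than with IFNβ (13.98 and 14.69; log2 2.79, SE 0.38, adjusted p = 5.15e-05). Cx3cr1, the fractalkine receptor gene, was lowered by IFNβ, from 13.63 and 14.15 to 9.29 and 11.33, and read 11.86 and 13.53 with LPS (direct log2 2.38, adjusted p = 0.0397), and the inhibitory Fc receptor gene Fcgr2b was higher with LPS by 2.48 (adjusted p = 0.00826). Of 17 sterol genes, 4 were higher with LPS and 1 with IFNβ, against 9.63% and 11.7% of all genes, with a median of 0.88. The synthesis genes Sqle and Cyp51 were higher with LPS by 2.07 and 1.99 (adjusted p = 0.00822 and 0.00696). The cholesterol exporters parted, since Abca1 was lowered by IFNβ (11.04 and 12.80 against 13.76 and 13.98 with LPS, log2 1.95, adjusted p = 0.00511), whereas Abcg1 was lowered by LPS and raised by IFNβ (13.10 and 12.96 against 16.16 and 15.94, log2 -3.02, SE 0.46, adjusted p = 0.000127). Calls that were not made without single arrays were those for Cx3cr1 (0.385 without WT IFNβ replicate 1, 0.329 without WT LPS replicate 2), Fcgr2b (0.0936 without WT IFNβ replicate 2, 0.0799 without WT LPS replicate 2), Sqle (0.0856 and 0.0621 without the same arrays) and Abca1 (0.140 without WT IFNβ replicate 1).

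The cell cycle list had 2 of 19 genes higher with LPS and 2 with IFNβ, near the 9.63% and 11.7% of all genes, with a median of -0.20. LPS had lowered 8 of the 19 and IFNβ 7, against 25.5% and 22.2% of all genes. Mcm2, a replication helicase gene, read 5.85 and 6.31 with LPS, 7.38 and 7.89 with IFNβ and 8.80 and 8.76 untreated (direct log2 -1.55, SE 0.26, adjusted p = 0.000371), and Rrm2 differed by -1.21 (adjusted p = 0.0322). Mki67 was higher with LPS, with 13.01 and 12.46 against 10.60 and 11.01 (log2 1.93, SE 0.37, adjusted p = 0.000948), and Tyms by 1.72 (adjusted p = 0.00396). The call for Rrm2 was not made without WT IFNβ replicate 1 (0.120), WT IFNβ replicate 2 (0.107) or WT LPS replicate 2 (0.222), nor that for Tyms without WT IFNβ replicate 2 (0.103).

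**Figure D3:**
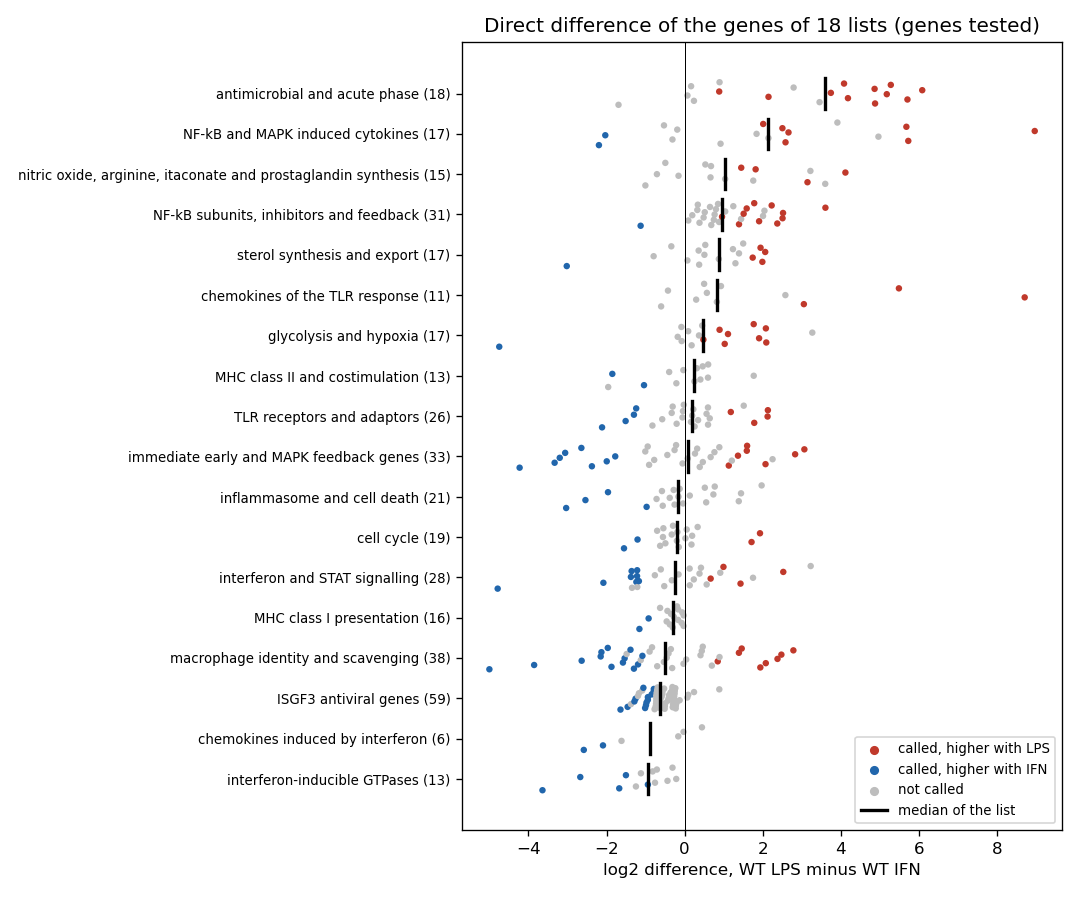
Direct difference (x axis, log2 LPS minus IFNβ in WT cells) of each tested gene in 18 gene lists (y axis), with called genes coloured by direction and a black bar at the list median. Medians run from 3.60 in antimicrobial genes and 2.15 in cytokines on the LPS side to -0.94 in interferon-inducible GTPases, while the median of all genes is 0.02.

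The genes raised over untreated cells were sorted into classes by their WT values. Genes that LPS raised at least 2-fold, that IFNβ did not raise by the test or by 2-fold and that differed directly were called LPS-specific (375 genes). Genes raised by both but further by LPS were LPS-stronger (71). The mirrored classes were IFN-specific (262) and IFN-stronger (197). Genes raised by both whose direct difference had a 95% interval within 2-fold were shared (261), and the interval was too wide to place 435 further genes raised by both. Il1a, Cxcl1 and Lcn2 fell in the LPS-specific class, Nos2, Il19 and Dusp2 in the LPS-stronger class, and Gbp4, Cxcl9, Ifit2 and Cd86 in the IFN-stronger class.
The 8 shared genes with the largest rises were Gcnt2, Phf11d, Ifi35, Pim1, Oas1g, Zeb1, Naa25 and Parp12. For Phf11d this holds for its brightest probe, since another probe gave -0.92 and passed the limma test (adjusted p = 0.0338). Gcnt2, a glycosyltransferase gene, read 9.43 and 9.32 with LPS and 8.91 and 9.30 with IFNβ, from 4.32 and 4.86, and Parp12, an antiviral ADP-ribosyltransferase gene, read 14.27 and 13.93 against 14.40 and 14.42, from 11.31 and 11.01. In Ifi35 the spot of 1 LPS array was an outlier and was left out.
In the LPS-specific class IFNβ replicate 2 was above replicate 1 in 260 of 375 genes, with a median gap of 0.27, against 7952 of 15267 and 0.02 over all genes. In the IFN-stronger class LPS replicate 2 was above replicate 1 in 34 of 197 genes, with a median gap of -0.42, against 0.06 over all genes.

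The levels of Ifnar1-/- macrophages did not define the classes, although their arrays contributed to the spread, the filter and the normalization on which the calls rest. The brightest Ifnar1 probe read 11.89 and 11.87 in untreated, 12.41 and 12.44 in LPS and 11.69 and 11.82 in IFNβ arrays of Ifnar1-/- cells, against 14.22 and 14.19, 14.36 and 14.59, and 12.53 and 12.92 in WT. It stayed above background, whether it lies in the deleted part is not given in the sources used here, and genotype and slide cannot be told apart. Between LPS and IFNβ in WT cells this probe differed by 1.75 with no call. Other Ifnar1 probes were higher with LPS by 1.96 and 1.39 and passed the limma test (adjusted p = 1.42e-05 and 1.9e-05). IFNβ against untreated Ifnar1-/- cells gave 0 called genes by limma (0.0% of genes tested), with 220 at an unadjusted p under 0.05 and at most 10 under the other settings tried. LPS raised 1752 genes (11.5%) and lowered 2213 (14.5%) in these cells. The class rules had already set the LPS response in WT. It was called and at least 2-fold for LPS-specific genes, and not called and under 2-fold for IFN-specific genes. The shares of these classes that rose in Ifnar1-/- cells cannot be read apart from that choice. Of LPS-specific genes, 289 of 375 (77.1%) rose with LPS in Ifnar1-/- cells, with a median change of 1.63 against 1.79 in WT. Of IFN-specific genes 5 of 262 (1.91%) rose and 80 fell, and of IFN-stronger genes 36 of 197 (18.3%) rose and 22 fell, with a median change of -0.04 against 1.78 in WT. Shared genes lay between, with 109 of 261 (41.8%) raised and a median of 0.51 against 1.5, and 57 of 71 LPS-stronger genes (80.3%) were raised, with a median of 2.03 against 3.96. Median changes with IFNβ in Ifnar1-/- cells ran from -0.0039 to 0.0646 over the classes.

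**Figure D4:**
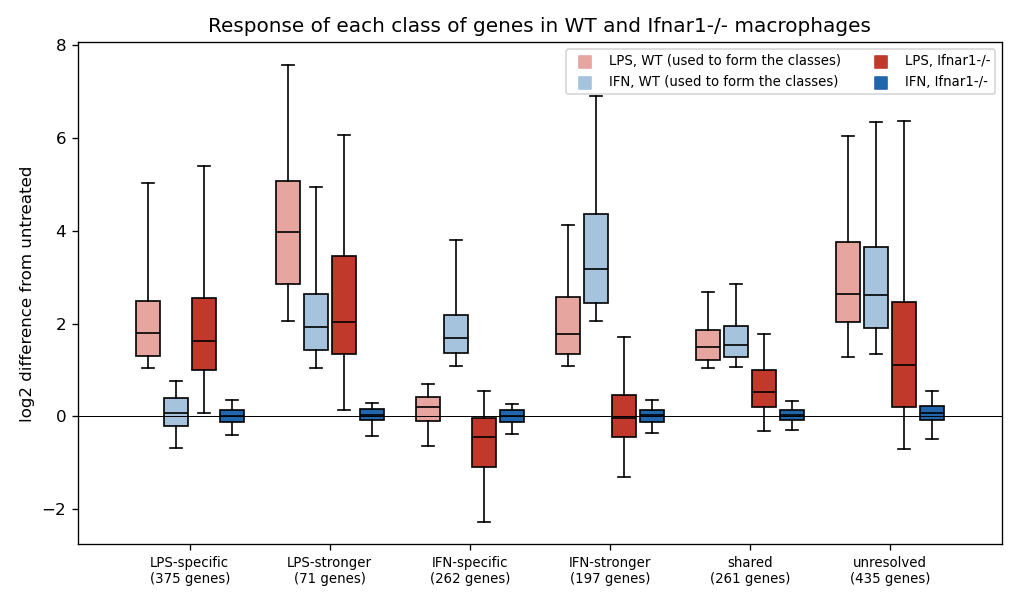
Log2 change over untreated cells of the same genotype (y axis) for WT LPS, WT IFNβ, Ifnar1-/- LPS and Ifnar1-/- IFNβ in 6 classes of genes (x axis), with boxes from the lower to the upper quartile, lines at the median and whiskers from the 5th to the 95th percentile. WT values defined the classes. In Ifnar1-/- cells with LPS the LPS-specific class has a median of 1.63 and the IFN-stronger class one of -0.04, and all medians with IFNβ are near 0.

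The change of the LPS response with genotype was tested as an interaction, which shares the WT LPS and untreated arrays with the definition of the classes. Of 15267 genes, 501 had a higher (3.28%) and 572 a lower (3.75%) log2 response in Ifnar1-/- cells. These counts were 1585 and 1091 with the slide as a block, 1021 and 610 without WT LPS replicate 2, and 159 and 373 without WT LPS replicate 1, so that the more frequent direction depended on the setting. The response was lower in 141 of 197 IFN-stronger genes (71.6%), 82 of 261 shared genes (31.4%), 28 of 71 LPS-stronger genes (39.4%), 28 of 262 IFN-specific genes (10.7%) and 20 of 375 LPS-specific genes (5.33%). In the same order, the counts ranged without single arrays from 94 (WT LPS replicate 1 left out) to 149, 54 to 95, 18 to 26, 12 to 40 and 10 to 15, and with the slide as a block they were 163, 142, 34, 75 and 44. Among genes higher with LPS, Il1a read 14.91 and 15.03 and Cxcl1 16.60 and 16.71 in Ifnar1-/- cells with LPS, from 2.24 and 2.5 and from 6.13 and 6.21. These LPS arrays were above their WT counterparts, with no call for the interaction (adjusted p = 0.595 and 0.205). Nos2 rose only to 11.38 and 11.28 from 8.51 and 7.66, an LPS response 4.74 lower than in WT on the log2 scale (SE 0.79, adjusted p = 0.00099). Il19 rose to 7.04 and 7.30 from 5.53 and 6.12, 5.47 lower (SE 0.51, adjusted p = 5.76e-06), although the direct comparison in WT had placed it on the LPS side, and Dusp2 rose by 2.76 in place of 5.86. Thus genes called higher with LPS than with IFNβ included some with a full LPS response in Ifnar1-/- cells and some with a reduced one.

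Of the 1786 genes higher with IFNβ, 208 (11.6%) had a lower and 117 (6.55%) a higher LPS response in Ifnar1-/- cells, and most had no call. Of the 1470 genes higher with LPS, 68 (4.63%) had a lower and 62 (4.22%) a higher one. Cxcl9 read 7.85 and 7.84 with LPS in Ifnar1-/- cells from 5.32 and 5.02, 3.61 lower than the WT response (SE 0.96, adjusted p = 0.0269), and Ifit2 read 4.51 and 4.52 from 5.82 and 6.02, lower by 5.54 (SE 0.61, adjusted p = 2.41e-05). Cd86 stayed at 7.93 and 7.86, from 7.97 and 8.29. Isg15, not called between the stimuli in WT, went the other way, reaching 17.50 and 17.29 from 10.58 and 10.50, with a log2 response 3.79 higher than in WT (SE 1.11, adjusted p = 0.0474). Its untreated level was lower than the WT 15.32 and 14.98, a gap in which genotype and slide cannot be told apart. Socs2, which LPS did not raise in WT, rose with LPS in Ifnar1-/- cells to 8.69 and 9.02 from 6.40 and 6.09 (interaction log2 3.47, SE 0.95, adjusted p = 0.0308).

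**Figure D5:**
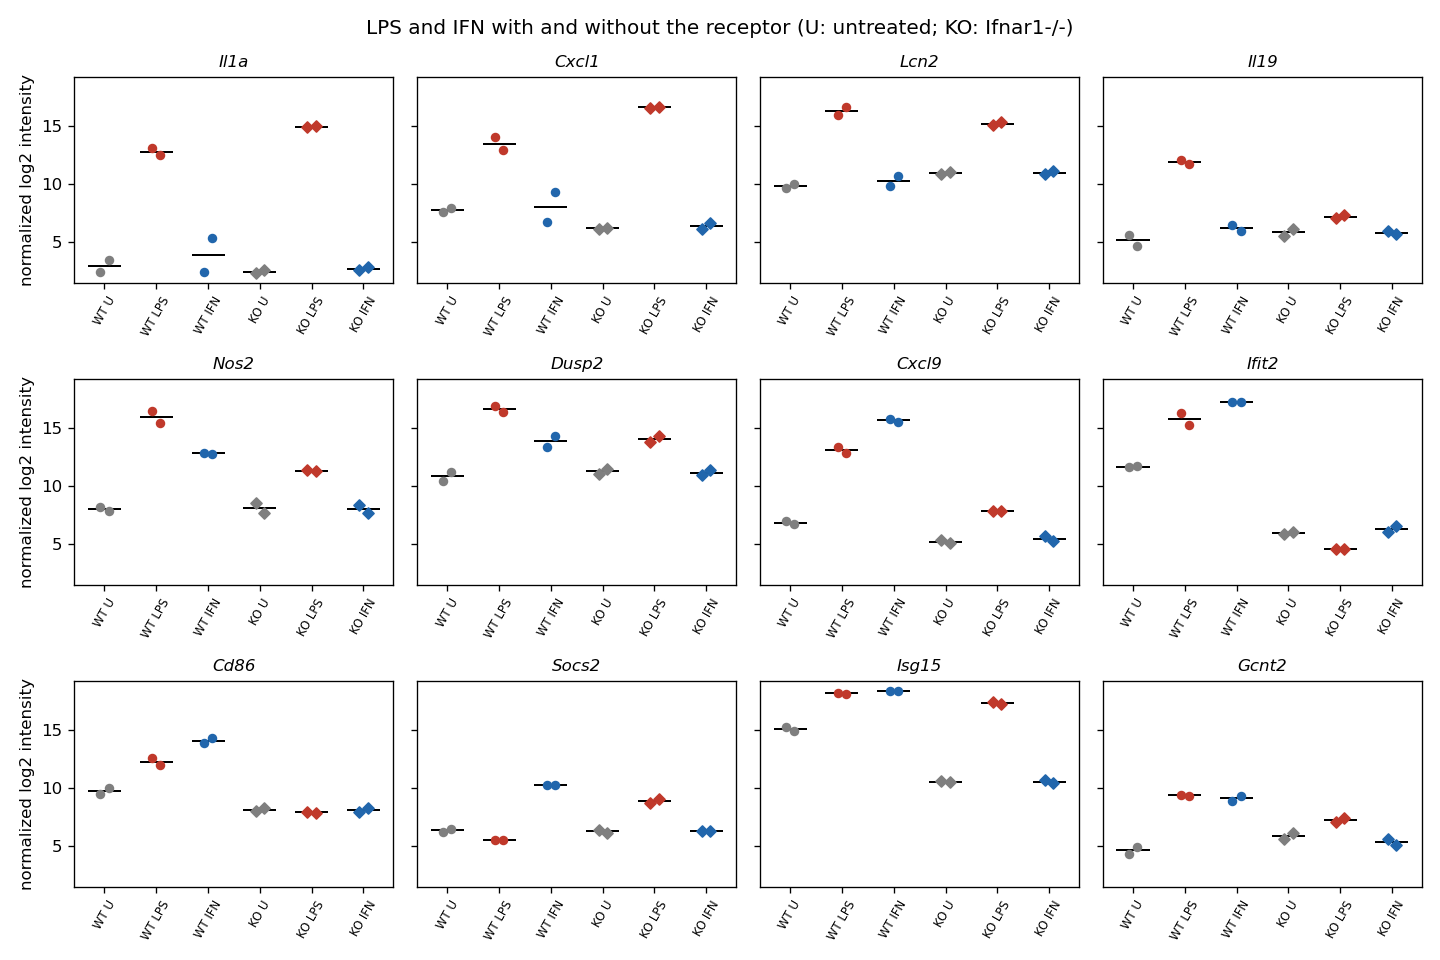
Normalized log2 intensity (y axis) on each array of untreated, IFNβ and LPS groups of WT and Ifnar1-/- macrophages (x axis) for 12 genes, with points for arrays and bars for group means. Il1a and Cxcl1 rise with LPS in both genotypes, Nos2 and Il19 rise less in Ifnar1-/- cells, and Cxcl9, Ifit2 and Cd86 rise with IFNβ in WT but not in Ifnar1-/- cells.

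Promoter letters were compared between the classes as a description. RefSeq windows from 250 bases before to 50 bases after the start were available for 12045 genes tested (15091 windows, of which those of 1 gene can overlap). The ISRE core was in 3.34% of all windows, in 12.6% of windows of IFN-stronger genes (25 of 199, exact 95% interval 8.30% to 18.0%), in 6.46% of those of shared genes, and in 4.89%, 4.48% and 4.12% of those of IFN-specific, LPS-stronger and LPS-specific genes. Windows of genes raised by both stimuli with an unresolved difference held it in 11.0% (48 of 438). The kB consensus was in 5.14% of all windows, in 8.45% of unresolved, 6.84% of shared, 6.70% of LPS-specific, 5.97% of LPS-stronger, 5.53% of IFN-stronger and 3.38% of IFN-specific windows. The AP-1 letters TGANTCA were in 5.96% of all windows, 14.9% of LPS-stronger windows (10 of 67, exact 95% interval 7.40% to 25.7%), 11.2% of unresolved, 8.51% of LPS-specific, 7.89% of IFN-specific, 7.54% of IFN-stronger and 5.70% of shared ones. The GAS letters TTCNNNGAA were in 7.31% of all windows, and in 11.1% of IFN-stronger, 10.5% of unresolved, 10.4% of LPS-stronger, 8.76% of LPS-specific, 8.75% of shared and 7.14% of IFN-specific windows. Both strands were searched, and 17 of the 504 windows with the ISRE core held a GAS match that overlapped it.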

How the data were processed

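Total RNA from each sample was labelled with Cy3 and hybridised to 1-colour Agilent arrays. The deposited scanner files gave, per the file headers, a processed intensity for each spot that Feature Extraction had already corrected for background. The authors also deposited a table of normalized log2 values, which was used as an alternative. limma is the tool named in the submitters' processing notes, with no version, and the genome build of the probe annotation is mm9. Here the intensities were taken as log2, outlier spots (130 to 499 per array) and control spots were left out, arrays were quantile normalized, and spots of a probe were averaged. Of 55681 probes, 29362 were matched to RefSeq by symbol, 1695 by accession and 321 by synonym. The 20674 probes well above background on at least 50% of the 32 arrays were retained and the brightest stood for its gene, which left 15267 of 22363 genes. limma 3.58.1 in R 4.3.3 was fitted to 16 groups of 2 arrays (16 residual degrees of freedom), with Benjamini-Hochberg adjustment over all genes. Tables were joined with the data.table package (1.17.8) in R and with pandas 2.3.3, numpy 2.4.6 and scipy 1.17.1 in Python 3.11.15, and plotted with matplotlib 3.10.9. The procedure was tested on simulated data. Arrays of the same WT slide deviated together (r = 0.507 across genes, which are not independent), so the slide, which equals genotype and replicate number, was tried as a block. A bound ("at least") sets the mean of the bright group against, per array of the dim group, the higher of the lowest signal well above background and the probe's own signal.

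Genes were named by these rules: the 15 furthest apart in each direction among called genes with arrays that did not overlap and signal on both arrays of the higher group, up to 3 called genes per direction in each list, a set list of cytokine, chemokine, antiviral and signalling genes, and the 8 shared genes with the largest rises. S100a8, Camp and the genes given only by a bound were named outside these rules, and some genes that the rules select are not reported here. The members and lists were chosen with earlier results of these data known. The number of arrays limits the precision. The alternatives are given at the end.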

Additional observations from a re-analysis of the deposited data

Results flagged for a closer look

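The log2 response to LPS differed between Ifnar1-/- and WT macrophages by the interaction test in limma (adjusted p below 0.05), higher in Ifnar1-/- cells for 501 genes and lower for 572 (1585 and 1091 with the slide as a block, 1021 and 610 without WT LPS replicate 2, 159 and 373 without WT LPS replicate 1). Among the genes named above this was a lower response for Il19 (-5.47), Cxcl9 (-3.61), Ccl8 (-4.35), Dusp2 (-3.10), Parp11 (-3.74), Ifit2 (-5.54), Cmpk2 (-5.12), Iigp1 (-3.41), Gbp9 (-3.91), Stat2 (-2.15), Cd86 (-2.76), Cd180 (-1.96), Tlr3 (-4.02), Nos2 (-4.74), Pfkfb3 (-2.99), Tnfsf10 (-5.14), Irf7 (-3.87), Rsad2 (-4.47), Usp18 (-3.08) and Mlkl (-2.30). It was also lower for the shared genes Gcnt2 (-3.40), Phf11d (-3.68), Ifi35 (-1.85), Oas1g (-3.30), Zeb1 (-1.88), Naa25 (-2.31) and Parp12 (-1.90). The response was higher for Mex3b (2.71), Cyld (1.94), Zfp36l2 (2.53), Socs2 (3.47), Irf4 (4.52) and Isg15 (3.79). In Mex3b, Cyld, Zfp36l2 and Irf4 LPS lowered the gene in WT, and the higher value is a smaller fall or none. Groups of 2 arrays were too small to be examined for a single outlying array.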

How the results depend on the processing

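Of the 94 called single genes named above, all kept the call with the slide as replicate block, with the filter by groups compared and with an intensity-dependent prior variance. All also kept it without the Ifnar1-/- LPS+zVAD+Nec-1 pair. Of them, 42 lost it with only the arrays compared in the fit, 16 to 29 without 1 of the 4 arrays, 10 with only the arrays of the genotype, 7 with no filter on dim probes, 4 each with the 75th percentile, with normexp and with the authors' values, and 2 with the mean of a gene's probes. The direct counts became 296 and 397 (LPS and IFNβ) with only the arrays compared, 2505 and 2825 with the replicate block, and 795 to 1335 and 1112 to 1420 without single arrays, where fewer arrays or residual degrees of freedom, or the removed slide differences, are part of the construction. LPS in Ifnar1-/- cells gave 3965 genes, 6057 with the block and 2330 to 2497 without single arrays. IFNβ in Ifnar1-/- cells gave 1 gene with normexp, with the filter by groups compared, with only the arrays of the genotype and with the authors' values, 10 with no filter, and 0 to 2 without single arrays. The interaction gave 1073 genes, 2676 with the block and 532 to 1631 without single arrays, and was not run on the arrays of 1 genotype. The block changed no call of a named gene other than those of Il1b, Ptgs2 and Tnfaip3 given above.

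With a fold limit of 4 in place of 2 the classes held 191 LPS-specific, 32 LPS-stronger, 100 IFN-specific, 84 IFN-stronger, 43 shared and 270 unresolved genes, and with 1.5 there were 477 shared genes. In the 250 bases before the start alone, the ISRE core was in 3.04% of windows of shared genes and 2.89% of all, and GAS, kB and AP-1 in 6.26%, 4.47% and 5.23% of all. Differences of genes that were not called changed sign when single arrays were left out, with ranges of -1.03 to 0.41 for Il10 (0.41 without WT IFNβ replicate 1, 0.25 without WT LPS replicate 2), -0.33 to 0.0055 for Cxcl10 (WT LPS replicate 2), -0.56 to 0.82 for Ifnb1 (-0.56 without WT LPS replicate 1, -0.11 without WT IFNβ replicate 1), -0.30 to 1.07 for Zfp36 (WT LPS replicate 1), -0.51 to 0.19 for Ripk3 (0.19 without WT LPS replicate 1, 0.096 without WT IFNβ replicate 1), -0.52 to 0.23 for Pim1 and -0.55 to 0.24 for Zeb1 (both WT LPS replicate 2) and -0.15 to 0.50 for Naa25 (WT LPS replicate 1). The causes were not tested. Probes near background limit what can be said of genes such as Il12b, for which only a bound was given.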
